A study of Mus musculus with 8 samples.

Results

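Lipid-associated macrophage genes are the genes that macrophages of fat switch on when they gather around dying or overfilled adipocytes. The group described here goes by that name but also holds Adgre1, a standard surface marker of mouse macrophages in general. Its 10 genes are Trem2, Gpnmb, Mmp12, Spp1, Clec4d, Clec7a, Cd9, Lgals3, Tyrobp and Adgre1. These genes were selected on their range over the 8 arrays, on their co-variation and on the comparison of Agt Tg with Wt mice in these same data. Those values are therefore given as a description, and nothing is read from any test of these genes. Of the 10 genes, 9 had a probe that passed the detection filter, among 8285 genes compared in all. Spp1 was not analysed here, since no probe was annotated to it. The other 9 genes had 17 probes, of which 16 were kept, and each gene is given by its brightest kept probe.

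Total RNA of epididymal white adipose tissue (WAT) was hybridised to Illumina mouse BeadChips, with 4 arrays labelled Agt Tg and 4 labelled Wt. Every mouse was a C57BL6/J male aged 4 months that had been fed a low fat diet, and the groups differed by a transgene that overexpresses angiotensinogen (Agt), the precursor protein of the renin-angiotensin system, in adipose tissue. The transgene was driven by the aP2 promoter, which is active in macrophages as well as in adipocytes. The comparison asked how overexpression of this system alters gene expression in WAT. Agt itself was no higher under the Agt Tg label, at a mean log2 intensity of 7.58 ± 1.19 (SD, n = 4) against 8.14 ± 0.57 (SD, n = 4) in Wt, so groups are named by their labels alone. Whether the Agt probe reads the transcript of the transgene was not given in its annotation, and this limit holds for every Agt value here.

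Detected probes numbered 11253 to 12284 per array of 25696, median intensity ran from 125 to 154, and pairs of arrays within a group had correlations of 0.956 to 0.986. No chip or scan batch was given in the sources used here. The labels do not state that samples came from separate mice, so p-values measure only the spread between these samples, and precision is limited by the number of arrays. White adipocyte markers were measured for 14 of 16 listed genes, with a list mean of 10.95 to 11.55 per array on the log2 scale. General macrophage markers were measured for 17 of 21, with a list mean of 8.90 to 10.28. Markers of the labelled tissue and of the cell type that names the gene group were therefore both among the measured genes.

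TREM2 is a lipid-sensing receptor that signals through the adaptor TYROBP, whose ITAM motif recruits the kinase SYK. In fat, macrophages that carry this receptor take up lipid from adipocytes, form crown-like structures around them and turn on genes of lysosomes, lipid handling and matrix breakdown. In bulk tissue, more cells of a type and more RNA per cell cannot be told apart.

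Transcription in macrophages is known to rest on ETS factors such as PU.1, on C/EBP and AP-1 factors and, for the lysosomal genes, on MITF and TFE factors. Windows around the transcription start, from 250 bases before to 50 after it, were found in RefSeq (GRCm38.p6) for 8 of the 10 genes, in 11 windows. Tyrobp and Adgre1 were not matched. The AP-1 letters TGANTCA, searched on both strands, were found in 3 of the 11 windows, from 3 of the 8 genes, Trem2, Gpnmb and Mmp12. Of all 32851 windows of this length, 7.81% held them. The windows of Trem2, Gpnmb and Mmp12 that hold the AP-1 letters are shown, with the letters of each motif found in capitals.
Trem2, chr17:48346151-48346450, plus strand: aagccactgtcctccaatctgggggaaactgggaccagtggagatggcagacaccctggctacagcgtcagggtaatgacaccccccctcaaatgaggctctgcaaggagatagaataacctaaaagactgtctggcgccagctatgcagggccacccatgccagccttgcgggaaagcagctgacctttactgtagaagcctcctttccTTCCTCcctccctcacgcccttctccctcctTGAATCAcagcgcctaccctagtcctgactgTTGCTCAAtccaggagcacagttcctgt
Gpnmb, chr6:49036268-49036567, plus strand: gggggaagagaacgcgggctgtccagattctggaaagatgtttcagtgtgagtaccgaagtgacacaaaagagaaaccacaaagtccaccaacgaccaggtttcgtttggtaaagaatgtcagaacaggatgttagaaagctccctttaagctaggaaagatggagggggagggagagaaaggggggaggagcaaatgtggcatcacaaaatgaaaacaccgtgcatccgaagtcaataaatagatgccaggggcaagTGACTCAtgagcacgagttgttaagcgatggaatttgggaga
Mmp12, chr9:7347124-7347423, plus strand: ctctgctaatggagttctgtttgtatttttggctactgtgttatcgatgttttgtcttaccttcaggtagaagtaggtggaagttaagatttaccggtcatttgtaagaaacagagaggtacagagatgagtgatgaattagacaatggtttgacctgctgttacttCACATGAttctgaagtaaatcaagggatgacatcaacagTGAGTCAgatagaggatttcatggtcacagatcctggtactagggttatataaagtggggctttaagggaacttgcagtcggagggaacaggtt
In the Trem2 window the capitals mark, in order, the ETS letters GAGGAA on the other strand, the AP-1 letters and the C/EBP letters TTGCNNAA. In the Gpnmb window they mark the AP-1 letters alone. In the Mmp12 window shown they mark the M-box core TCATGTG on the other strand and then the AP-1 letters. Mmp12 had another window, not shown, that held GAGGAA and TTGCNNAA, both on the other strand, but no AP-1 letters. Over both strands, GAGGAA was found in 6 of the 11 windows (5 of the 8 genes), beside 28.3% of all windows. Both windows of Clec7a held it, and they overlap. TTGCNNAA was found in 3 of the 11 windows (3 genes), beside 10.8%, and TCATGTG in 1 window (1 gene), beside 3.77%. The E-box CACGTG was found in none of the 11 windows, beside 7.15%. A match is a run of letters and no measured binding.

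All 9 measured genes were lowest on the array Agt Tg 2, and 7 of them were highest on Agt Tg 3. Tyrobp and Adgre1 were highest on Wt 1, Adgre1 on its brightest probe alone. The range over the 8 arrays had a median of 3.14 on the log2 scale over the 9 genes, or 8.79-fold, beside a median of 0.91 over all 8285 genes. Of the 9 genes, 8 were in the top 5% of all genes by range, and Lgals3 was outside it. Background correction stretched these ranges, since their median was 1.78 on the authors' log2 values and 1.67 with no background correction.

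**Figure D1:**
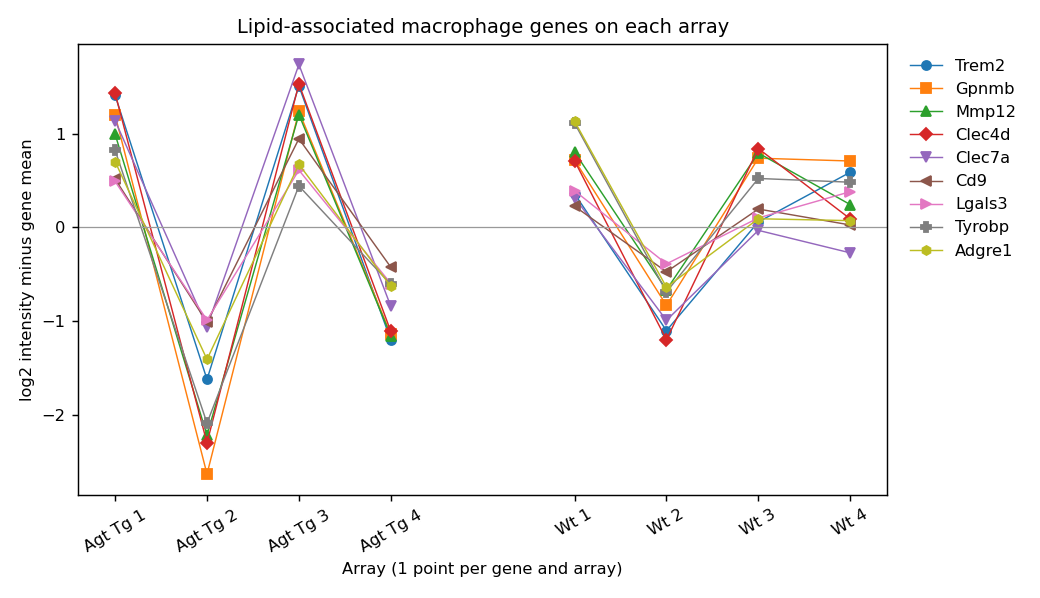
Log2 intensity of each of the 9 measured genes minus that gene's mean over the 8 arrays (vertical axis), for the 4 arrays labelled Agt Tg and the 4 labelled Wt (horizontal axis). Each point is 1 gene on 1 array, and lines join the points of a gene within a group. All 9 genes are lowest on Agt Tg 2, and all are below their own median on Agt Tg 2, Agt Tg 4 and Wt 2.

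Among the receptors, Trem2 (probe ILMN_2992709) had a log2 intensity of 11.02, 7.99, 11.12 and 8.41 on Agt Tg 1 to 4 and of 9.97, 8.51, 9.67 and 10.20 on Wt 1 to 4. Agt Tg 1 and Agt Tg 3 lay above every Wt array and Agt Tg 2 and Agt Tg 4 below every Wt array, so the groups overlapped with the Agt Tg arrays at both ends. The highest array was 8.79-fold above the lowest, a range of rank 40 among 8285 genes. On the linear scale, before normalization, intensities ran from 339 on Agt Tg 2 to 2070 on Agt Tg 3.

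Tyrobp, the signalling adaptor of TREM2, had log2 intensities of 8.44, 5.53, 8.06 and 7.01 on Agt Tg 1 to 4 and of 8.73, 6.93, 8.14 and 8.10 on Wt 1 to 4. Unlike Trem2 it was highest in a Wt array, and no Agt Tg array exceeded Wt 1. Its range was 3.20 on the log2 scale, or 9.19-fold, on background-corrected values. Before correction and normalization, intensities ran from 152 on Agt Tg 2 to 710 on Wt 1.

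Clec7a encodes dectin-1, a receptor for fungal beta-glucans that carries an ITAM-like motif of its own. Log2 intensities of its brightest probe were 8.05, 5.85, 8.65 and 6.07 on Agt Tg 1 to 4 and 7.23, 5.92, 6.88 and 6.64 on Wt 1 to 4. As for Trem2, Agt Tg 1 and Agt Tg 3 exceeded all Wt arrays, but the lowest Wt array, Wt 2, lay between Agt Tg 2 and Agt Tg 4. The range was 2.80, or 6.96-fold, on background-corrected values. Before correction and normalization, intensities ran from 159 on Wt 2 to 470 on Agt Tg 3.

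Clec4d encodes a C-type lectin of myeloid cells that also signals through an ITAM adaptor. Its log2 intensities were 8.44, 4.71, 8.54 and 5.90 on Agt Tg 1 to 4 and 7.72, 5.81, 7.85 and 7.10 on Wt 1 to 4. Agt Tg 1 and Agt Tg 3 were again above every Wt array, and Wt 2 lay just below Agt Tg 4. The gene was not detected above background on Agt Tg 2. On background-corrected values its range was at least 10.6-fold, set against the lowest signal among the probes detected on that array. Before correction and normalization, intensities were 132 on Agt Tg 2 and 443 on Agt Tg 3, so the fold depends on the correction. Clec4d, Clec7a, Gpnmb and Cd9 lie on the same chromosome, chromosome 6.

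Adgre1 encodes the adhesion receptor that is a standard surface marker of mouse macrophages. Its log2 intensities were 8.32, 6.21, 8.29 and 6.99 on Agt Tg 1 to 4 and 8.75, 6.98, 7.71 and 7.69 on Wt 1 to 4. Wt 1 was highest and Agt Tg 2 lowest, 5.80-fold apart.

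Gpnmb encodes a transmembrane glycoprotein of lysosomes and is a target of MITF. On its brightest probe (ILMN_2648669) log2 intensities were 12.60, 8.77, 12.64 and 10.26 on Agt Tg 1 to 4 and 12.12, 10.57, 12.14 and 12.11 on Wt 1 to 4. Agt Tg 1 and Agt Tg 3 were above every Wt array, Agt Tg 2 and Agt Tg 4 were below every Wt array, and among the Wt arrays Wt 2 stood apart on the low side. The range of 3.87, or 14.6-fold, had rank 16 among 8285 genes.

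Mmp12, the macrophage elastase, is a secreted protease that breaks down elastin. Its log2 intensities were 8.07, 4.86, 8.28 and 5.92 on Agt Tg 1 to 4 and 7.88, 6.41, 7.87 and 7.32 on Wt 1 to 4. The same pair of Agt Tg arrays was on top and the same pair at the bottom as for Gpnmb. Mmp12 was not detected on Agt Tg 2, which leaves at least 8.92-fold between the highest and the lowest array on background-corrected values. Before correction and normalization, intensities were 136 on Agt Tg 2 and 394 on Agt Tg 3, so this fold too depends on the correction.

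Lgals3, the secreted lectin galectin-3, had the brightest probe and the narrowest range of the 9 genes. Its log2 intensities were 13.97, 12.49, 14.09 and 12.88 on Agt Tg 1 to 4 and 13.87, 13.09, 13.58 and 13.86 on Wt 1 to 4, a range of 1.60 or 3.02-fold. Cd9, a tetraspanin of the cell surface that many cell types carry, had 11.13, 9.60, 11.56 and 10.19 on Agt Tg 1 to 4 and 10.84, 10.14, 10.81 and 10.64 on Wt 1 to 4. That range was 1.95, or 3.87-fold, with rank 294 among 8285 genes. Both genes were highest on Agt Tg 3 and lowest on Agt Tg 2, as were Trem2, Gpnmb, Mmp12, Clec4d and Clec7a, over a narrower span.

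**Figure D2:**
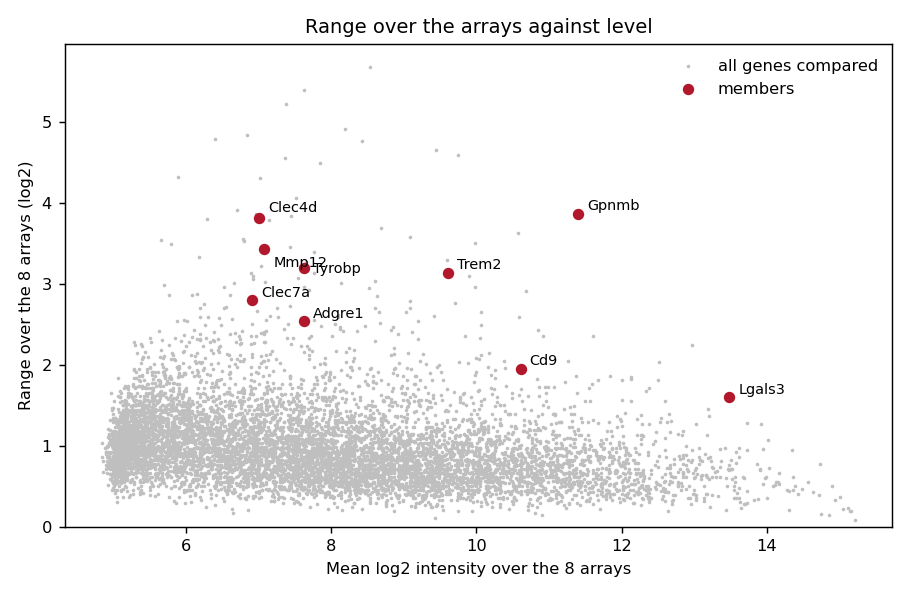
Range over the 8 arrays (vertical axis, log2) against mean log2 intensity over the 8 arrays (horizontal axis) for the 8285 genes compared in grey, with the 9 measured lipid-associated macrophage genes in red. The 9 genes run in range from 1.60 for Lgals3 to 3.87 for Gpnmb, beside a median of 0.91 over all genes.

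3 of the genes had more than 1 kept probe. For Gpnmb the other 3 probes correlated with the brightest at 0.98, 0.81 and 0.85 over the 8 arrays, with ranges of 4.94, 2.17 and 1.80. For Clec7a the other kept probes correlated with the brightest at 0.96 and 0.74, and 1 more was detected on 1 array alone and was not kept. For Adgre1 the other probes correlated at 0.72 and 0.81. Both were highest on Agt Tg 1, not on Wt 1, and lowest on Agt Tg 4, not on Agt Tg 2.

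In Agt Tg compared with Wt mice, none of the 9 genes passed at adjusted p under 0.05 in limma with Benjamini-Hochberg adjustment, as did none of the 11624 probes tested (0.0%, lowest adjusted p 0.224). At unadjusted p under 0.05, 0 of the 9 genes were called, beside 3.93% of 8285 genes that were higher in Agt Tg and 5.35% that were lower. The groups overlapped for all 9 genes, beside 6.36% of all genes whose groups did not overlap. Because the genes were chosen with this contrast in view, nothing is read from these counts. The log2 difference, Agt Tg minus Wt, had a median of -0.24 over the 9 genes, with 3 higher and 6 lower, beside a median of 0.01 over all genes. Under median scaling 1 was higher and 8 lower, while the median over all genes was then -0.12, with 2637 higher and 5648 lower.

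The lowest differences were those of Tyrobp, at -0.71 ± 0.54 (SE, n = 4 per group), Gpnmb, at -0.67 ± 0.72, and Mmp12, at -0.59 ± 0.65. Those of Adgre1 (-0.33 ± 0.46), Lgals3 (-0.24 ± 0.32) and Clec4d (-0.22 ± 0.75) followed. Trem2 (0.05 ± 0.65) and Cd9 (0.02 ± 0.35) were near 0. Under median scaling each was -0.12, the same as the median over all genes under that scaling. With array weights Trem2 was at 0.43 and Cd9 at 0.27. The difference of Clec4d turned to 0.40 with array weights and to 0.04 both on the authors' log2 values and with no background correction. Clec7a, at 0.49 ± 0.55, had the highest difference. Apart from that of Tyrobp, every difference of the 9 genes was smaller than its standard error.

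Single arrays turned the sign of every one of these differences except that of Tyrobp, which stayed between -1.11 and -0.14 when single arrays were left out. Without Agt Tg 2 the median difference was 0.10, with 8 of the 9 genes higher and 1 lower, and without Agt Tg 3 all 9 were lower. Without Agt Tg 1 the median was -0.61, the lowest value when any 1 array was left out. On the other probes the difference was -0.32, 0.29 and 0.05 for Gpnmb, 0.31 and -0.29 for Clec7a, and 0.30 and -0.27 for Adgre1, so probes of 1 gene disagreed in sign.

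The SD over the 4 arrays was larger in Agt Tg than in Wt for all 9 genes, for example 1.89 against 0.78 for Gpnmb, 1.67 against 0.75 for Trem2 and 1.90 against 0.93 for Clec4d. Over all 8285 genes the SD was larger in Agt Tg for 49.8%. The 9 genes varied together, so they are not 9 separate observations. Genes named below as varying most like them or most opposite to them also had a larger SD in Agt Tg. Examples are Rassf4 (0.73 against 0.39) and Acsm3 (1.74 against 0.61). This difference in spread was not tested, since the range over the arrays chose the genes.

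A profile of the 9 genes was made as the mean of their log2 values after each gene was standardised over the 8 arrays. It was 0.92, -1.63, 1.08 and -0.82 on Agt Tg 1 to 4 and 0.64, -0.75, 0.32 and 0.25 on Wt 1 to 4. On Agt Tg 2, Agt Tg 4 and Wt 2, none of the 9 genes was above its own median, whereas all 9 were on Agt Tg 1 and Wt 1. The widest gaps between neighbouring arrays were 1.00, between Wt 2 and Wt 4, and 0.81, between Agt Tg 2 and Agt Tg 4. Agt Tg 2 had 11327 detected probes, more than Wt 3 alone among the 8 arrays, and the part of this number in the low member values was not tested.

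Across the 8 arrays the 36 pairs of the 9 genes had a median Pearson r of 0.94, from 0.71 for Clec7a with Tyrobp to 0.99 for Gpnmb with Mmp12. The median of Spearman's rho was 0.90, from 0.62 to 1.00. After the group means were subtracted, the median r was 0.96, from 0.88 to 1.00. Without Agt Tg 2 and Agt Tg 4, the arrays farthest from the median of the profile, it was 0.88, from 0.58 to 0.99, over 6 arrays. These values describe genes chosen for their co-variation, and the pairs share arrays and tissue pieces.

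Among the closest pairs were those of Gpnmb, Mmp12 and Clec4d, with r of 0.97 to 0.99, and that of Gpnmb with Lgals3, at 0.98. Tyrobp and Adgre1 went with each other at 0.95 and with Clec7a at 0.71 and 0.82. Without the farthest arrays, Tyrobp and Adgre1 still had an r of 0.91, while Tyrobp had 0.58 with Clec7a and 0.61 with Cd9. Trem2, the receptor, and Tyrobp, its adaptor, had an r of 0.84, and 0.69 without those arrays.

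**Figure D3:**
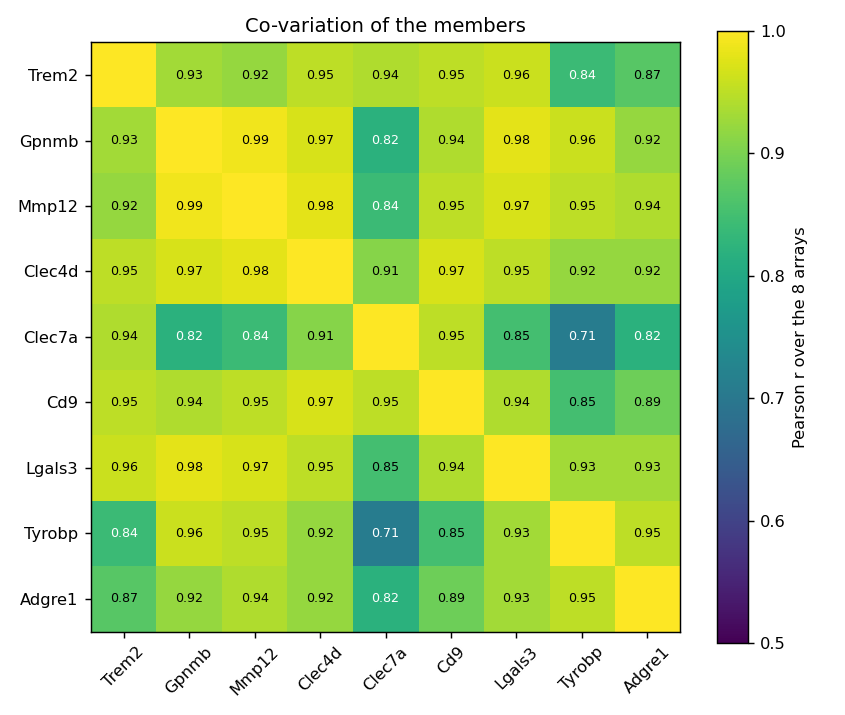
Pearson r over the 8 arrays for each pair of the 9 measured genes, as colour and as printed values. The lowest value is 0.71 for Clec7a with Tyrobp, and Gpnmb with Mmp12 is at 0.99.

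Agt stood opposite to the 9 genes. Its log2 intensities were 6.74, 8.80, 6.39 and 8.39 on Agt Tg 1 to 4 and 7.50, 8.87, 8.11 and 8.09 on Wt 1 to 4. In both groups the array with the highest profile had the lowest Agt, and the r of Agt with the profile was -0.88 (rho -0.90, n = 8). It was -0.99 after the group means were subtracted, -0.88 without Agt Tg 3 and Agt Tg 1, and -0.78 under median scaling. By gene, r with Agt ran from -0.70 for Tyrobp to -0.99 for Clec7a. Of all 8285 genes, 121 (1.46%) had an r with the profile as low as that of Agt or lower.

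**Figure D4:**
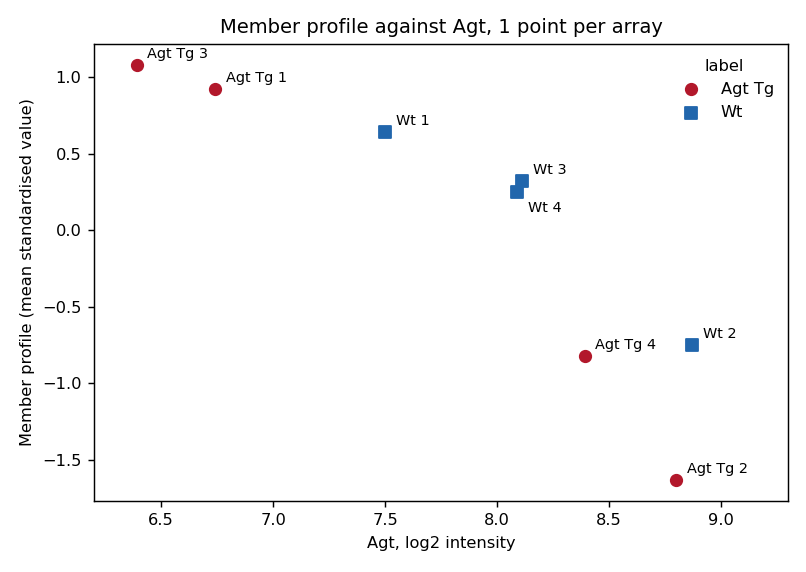
Profile of the 9 measured genes (vertical axis, mean standardised value) against Agt (horizontal axis, log2 intensity), 1 point per array, for arrays labelled Agt Tg (red circles) and Wt (blue squares). Agt Tg 3 and Agt Tg 1 have the highest profile and the lowest Agt, and r over the 8 arrays is -0.88.

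Over all 8285 genes r with the profile had a median of -0.04, and 5.2% of them were over 0.8. Among 3351 other genes with a range of at least 1, 154 had an r of at least 0.9 and 53 an r of -0.9 or below. The 12 genes most like the profile were Rassf4 (0.993), Nckap1l (0.989), Adam8 (0.987), Arhgap25 (0.987), Cd84 (0.987), Ms4a7 (0.986), Sirpb1a (0.984), Nfe2l2 (0.981), Cyba (0.981), Fyb (0.980), Lat2 (0.979) and Adssl1 (0.979). Nckap1l encodes a subunit of the actin-regulating WAVE complex of blood cells, Adam8 a membrane metalloproteinase of leukocytes, and Cyba a subunit of the phagocyte NADPH oxidase. Sirpb1a encodes a receptor that pairs with the TYROBP adaptor, and Lat2 an adaptor downstream of immune receptors.

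Rassf4, the gene nearest to the profile, had log2 intensities of 10.34, 8.92, 10.45 and 9.47 on Agt Tg 1 to 4 and 10.16, 9.29, 9.97 and 10.00 on Wt 1 to 4. It ordered the arrays like Trem2 and Gpnmb at the extremes, over a range of 1.53. At the opposite end were Ppm1l (-0.985), a protein phosphatase gene, Chst1 (-0.982), a sulfotransferase gene, Clmn (-0.982), Acsm3 (-0.980), a mitochondrial acyl-CoA synthetase gene, Cachd1 (-0.979) and Popdc2 (-0.965). Acsm3 had log2 intensities of 5.35, 8.91, 5.67 and 7.99 on Agt Tg 1 to 4 and 6.00, 7.40, 6.68 and 6.26 on Wt 1 to 4. It was highest where the 9 genes were lowest, over a range of 3.56 or 11.8-fold.

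Genes of the same pathways were taken from lists by role, and no gene of any list passed at adjusted p under 0.05 in limma. For ITAM receptors and SYK signalling, 14 of 21 listed genes were measured, all 14 had an r above 0 with the profile, and 10 were over 0.8 (median 0.89). The highest were Sirpb1a and Lat2, and the lowest were Inpp5d (0.538), an inhibitory phosphatase, and Pilrb1 (0.658), a paired activating receptor. The list mean was 8.52, 6.96, 8.61 and 7.46 on Agt Tg 1 to 4 and 8.28, 7.37, 8.11 and 8.32 on Wt 1 to 4, in which Agt Tg 3 was again highest and Agt Tg 2 lowest. C-type lectins near the dectin genes were more divided, with a median r of 0.64 over 7 of 14 genes, from 0.935 for Clec4b1 and 0.863 for Clec4a3 to 0.473 for Clec2d and 0.0111 for Clec1a.

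Lysosome and lipid genes had a median r of 0.69, with 8 of 21 over 0.8. Ctsk, a collagen-degrading cathepsin (0.975), had a range of 3.58 on the log2 scale, whereas Psap, the precursor of the saposins (0.968), had one of 0.43, so a like order of the arrays went with spans of different size. Ctsl (-0.166), another cathepsin, and Apoe (-0.514), an apolipoprotein that adipocytes make too, had an r below 0. Without Agt Tg 2 and Agt Tg 4, however, the r of Ctsl was 0.92, while that of Apoe was -0.46. Among metalloproteinases and their inhibitors the median was 0.71 over 15 genes. Adam8 and the inhibitor Timp1 (0.903) were at the top, and the inhibitors Timp4 (-0.865) and Timp3 (-0.642) were at the bottom.

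Of the osteopontin receptors, Cd44 had an r of 0.955 and Itgav, an integrin subunit, 0.531, while Itga5 (0.233) and Itgb1 (-0.0696) were lowest. Other tetraspanins had a median of 0.36 over 10 genes, with Cd63 (0.893) and Tspan33 (0.807) highest and Cd151 (-0.848) and Tspan3 (-0.759) lowest. Other galectins had a median of 0.19 over 7 genes, with Lgals2 (0.650) and Lgals8 (0.628) highest and Lgals4 (-0.188) and Lgals7 (-0.461) lowest. Lgals2 was detected on 4 arrays, and its r was 0.15 without Agt Tg 2 and Agt Tg 4 (Lgals8 0.54, Lgals4 -0.10, Lgals7 -0.41). For the relatives of both Cd9 and Lgals3, the values therefore lay on both sides of 0. The EGF-TM7 relatives of Adgre1, Adgre5 (0.511) and its ligand gene Cd55 (0.369), had a median of 0.44.

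Of the transcription factors, 8 of 14 were measured, with a median r of 0.40. Irf8 (0.626) and Bhlhe40 (0.506) were highest, and Cebpa (-0.785) and Pparg (-0.918), both of them also factors of adipocyte differentiation, were lowest. Without Agt Tg 2 and Agt Tg 4 these became 0.03 for Irf8, -0.08 for Bhlhe40, -0.48 for Cebpa and -0.83 for Pparg. Growth factors and chemokines had a median of 0.78 over 10 genes, with Ccl2 (0.946) and Cx3cr1 (0.864), a chemokine receptor, highest and Csf1 (-0.433) and Il34 (-0.545), the ligands of the macrophage growth factor receptor, lowest. Ccl2, which draws monocytes into tissue, was detected on 5 of the 8 arrays. Cell cycle genes had a median of 0.84, with 7 of 10 over 0.8, led by Birc5 (0.959) and Mcm5 (0.924) and ending with Hmgb2 (0.504) and Mcm2 (0.309).

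**Figure D5:**
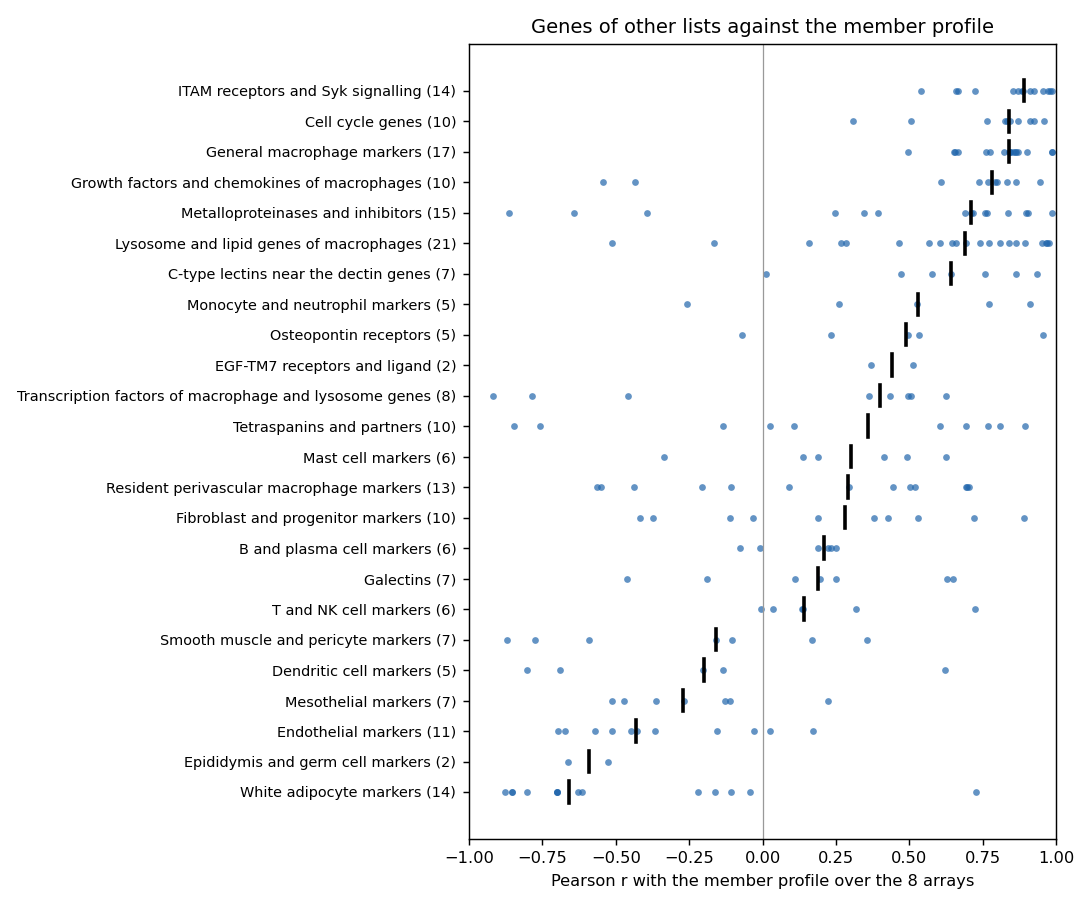
Pearson r with the profile of the 9 measured genes over the 8 arrays (horizontal axis) for each measured gene (blue points) of 24 lists (rows, number measured in parentheses), with the median of each list as a black bar. Medians run from 0.89 for ITAM receptors and SYK signalling to -0.66 for white adipocyte markers, beside -0.04 over all genes.

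General macrophage markers had a median r of 0.84, and 11 of 17 were over 0.8. Cd84 (0.987) and Ms4a7 (0.986) were highest, and Spi1 (0.496), which encodes PU.1, and C1qc (0.652), a chain of complement C1q, were lowest. The list mean was 10.22, 8.90, 10.28 and 9.24 on Agt Tg 1 to 4 and 9.85, 9.38, 9.65 and 9.98 on Wt 1 to 4. The part of macrophage content in the ranges of the 9 genes was not tested.

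Resident perivascular macrophage markers behaved otherwise, with a median r of 0.29 and 0 of 13 over 0.8 (0.39 under median scaling). Mrc1 (0.703), the mannose receptor, and Ccl8 (0.696) were highest, and Lyve1 (-0.550) and Cd209d (-0.563) were lowest. Their median log2 difference, Agt Tg minus Wt, was -0.43, with 2 higher and 11 lower (-0.25 on the authors' log2 values), against -0.24 for the 9 genes and -0.03 for general macrophage markers. At unadjusted p under 0.05, 3 of the 13 were lower and 0 higher, beside 5.35% and 3.93% of all genes. These were Cd163, Cd209b and Cbr2, named after their values were seen, and none passed at adjusted p. Whether the lists differ from each other was not tested.

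White adipocyte markers ran against the profile, with a median r of -0.66 and 13 of 14 below 0. Pnpla2 (-0.877) and Lipe (-0.854), the lipases of fat breakdown, were lowest, and Lep (0.728), which encodes leptin, and Dgat2 (-0.0435) were highest. The list mean was 11.05, 11.55, 10.95 and 11.51 on Agt Tg 1 to 4 and 11.21, 11.52, 11.19 and 11.28 on Wt 1 to 4, lowest on Agt Tg 3 and highest on Agt Tg 2. Their part in the order of the arrays was not tested. Epididymis and germ cell markers had 2 of 9 genes measured, Adam7 (-0.663) and Lcn8 (-0.526), with a list mean of 4.92 to 6.24.

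Among other blood cells, monocyte and neutrophil markers had a median r of 0.53 over 5 genes, from 0.910 for S100a8 and 0.772 for Lcn2 to 0.259 for Plac8 and -0.257 for Retnlg. S100a8, a calgranulin of neutrophils and monocytes, had log2 intensities of 12.07, 8.44, 10.89 and 9.84 on Agt Tg 1 to 4 and 12.06, 9.68, 10.66 and 10.94 on Wt 1 to 4, so Agt Tg 1 and Wt 1 were on top instead of Agt Tg 3. Mast cell markers had a median of 0.30, B and plasma cell markers 0.21, T and NK cell markers 0.14 and dendritic cell markers -0.20. Among the stromal lists it was 0.28 for fibroblasts and progenitors, -0.16 for smooth muscle cells and pericytes (0.06 under median scaling), -0.27 for mesothelial cells and -0.43 for endothelial cells. In the fibroblast list Lum (0.891), a small proteoglycan of the matrix, was highest, with Cd34 (-0.418) lowest.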

How the data were processed

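Total RNA of 8 WAT samples, 4 labelled Agt Tg and 4 labelled Wt, was measured. The authors deposited bead intensity values (linear, not normalized), each beside its detection p-value. They also deposited log2 values made with lumi (version and settings not stated), quantile normalized, with a median of 7.11 on every array.

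Intensities were corrected and normalized by neqc in limma 3.58.1 (R 4.3.3), which infers negative controls from the detection p-values, applies normexp and quantile normalization and adds an offset, here 16. Folds of dim probes are uncertain after these steps. A probe was kept if it was detected (p under 0.05) on 4 or more of 8 arrays, which 11624 (45.2%) were. Groups were compared by lmFit and eBayes with trend and no block, tested on simulated data, with Benjamini-Hochberg adjustment over all kept probes. The blank line (1) and the probe missing from the intensities (1) were not used. By the platform annotation and Entrez IDs 23978 probes had 1 symbol, 0 several and 1718 none. Correlations used Python 3.11.15 with numpy 2.4.6.

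The genes and the 24 lists were chosen with earlier results of these data known. Named were every member, Agt, the 12 genes with the highest and the 6 with the lowest r among genes with a range of at least 1, and from each list the 2 highest and the 2 lowest. Alternatives changed the background correction, the scaling, the offset (50), the detection filter (none, or p under 0.01 on 8 arrays), the source (the deposited log2 values) and the probe of a gene (mean), added array weights or a replicate block, or left out each array.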

Additional observations from a re-analysis of the deposited data

Results flagged for a closer look

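Each of 115 genes was looked at in both groups (230 groups of 4 arrays) for an array far from the other arrays of its group, by Dixon's criterion, which chance meets in about 1 of 20 groups. 11 met it. Gpnmb was the one among the 9 lipid-associated macrophage genes, where Wt 2 lay low at 10.57 and the other Wt arrays at 12.11 to 12.14 on the log2 scale. Wt 2 was also low for 4 other genes, Arhgap25 (7.73, others 8.87 to 8.98), Cyba (11.93, others 12.69 to 12.84), Lat2 (8.83, others 10.26 to 10.52) and Clec2d (8.61, others 9.44 to 9.59). Arhgap25, Cyba and Lat2 were named for their high r with the profile, which was itself low on Wt 2 (-0.75), so they add nothing separate to the flag of Gpnmb. Wt 3 was high for Clec1a (6.27, others 5.33 to 5.43) and Pdgfrb (6.86, others 6.40 to 6.43) and low for Irf8 (5.06, others 5.68 to 5.76). Wt 4 was low for Lgals2 (4.84, others 5.14 to 5.15). Agt Tg 2 was high for Zbtb46 (6.71, others 5.97 to 6.06) and Agt Tg 4 for Fcer2a (5.49, others 4.54 to 4.69).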

How the results depend on the processing

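With 4 arrays per group and dim probes for Mmp12 and Clec4d, differences below the spread between arrays were not detectable. Under each alternative fitted over all probes (not the mean of a gene's probes), 0 probes were called by limma at an adjusted p under 0.05. Of 11624 probes tested in limma, 1145 were at unadjusted p under 0.05 (485 higher, 660 lower). With no detection filter this number was 2126, but of 25696 probes. It was 742 to 1328 when single arrays were left out, the lowest without Wt 1 and the highest without Wt 3. Median scaling gave 80 higher and 1193 lower, with the median of all probes at -0.13, and a member median of -0.37. The median member range of 3.14 was 1.78 on the authors' log2 values, 1.67 with no background correction and 2.36 to 3.14 when single arrays were left out. The median pairwise r ran from 0.90 to 0.95 over the alternatives other than array weights and the replicate block, which do not apply to it, and the median member difference from -0.61 without Agt Tg 1 to 0.10 without Agt Tg 2, and from -0.37 to -0.05 otherwise. Requiring detection p under 0.01 on all 8 arrays dropped Mmp12 and Clec4d and left 7 genes. The replicate block gave 1368 probes at unadjusted p under 0.05 and a lowest adjusted p of 0.0547. Samples of the same number deviated together at 0.33, 0.39, -0.04 and -0.08. The labels do not say whether such samples share more than a number, and these values do not settle it.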
